A study of Mus musculus with 6 samples.

Results

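Plasma was compared with whole blood in mice with heart failure (HF). The comparison used 2 of the 6 arrays of the series, HF_Plasma and HF_WB, chosen by their tissue and treatment labels and not by any measured value. Of the 59729 mouse probes on each array, 7536 probes for long noncoding RNAs (LncRNAs) with recognisable names and 4093 probes for mRNAs were followed. The 2 probe sets are those whose levels could separate plasma from whole blood in treated mice.

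The study profiled LncRNAs and mRNAs in heart, whole blood and plasma of male C57BL/6J mice, with 1 single-colour array of mixed RNA for each of 6 conditions. The HF mice received isoproterenol, a β-adrenergic agonist, by subcutaneous injection at 40 mg/kg/day for 1 week, and the control mice received saline. No gene was deleted or added in either group, and age was not given in the sources used here. According to the methods, RNA of 5 mice per group was mixed for the arrays, while the plasma extraction pooled plasma of 10 mice.

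Blood was drawn by removal of the eyeball. Whole blood RNA was extracted directly, and plasma was spun 2 times and passed through a 0.22 µm filter before extraction, so that the plasma array should hold RNA from outside cells. The HF whole blood and HF plasma arrays were on 1 slide, and the control whole blood and control plasma arrays were on another. Since each condition has 1 array, no test was made, and every difference below compares 2 arrays of pooled RNA. Where control blood is set beside HF blood, the slide and the treatment cannot be told apart. In such bulk RNA, fewer cells of a type and less RNA per cell cannot be told apart.

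Most RNA in whole blood is carried by red cells, reticulocytes, platelets and white cells, and reticulocytes are so rich in globin mRNA that globins dominate a whole blood transcriptome. Plasma holds RNA that was released from cells and is protected inside vesicles, lipoproteins or protein complexes, usually in small amounts and often in fragments. LncRNAs are transcripts without a long open reading frame, and some are transcribed from ultraconserved regions, which are stretches identical between human, mouse and rat genomes.

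The LncRNA uc.115-, from an ultraconserved region at chr17:52604753-52604970 of the mouse build mm9, was among those higher in HF plasma. Whether its array probe covers the stretch amplified by the study's quantitative PCR primers was not checked here. The primers listed under this name, each 24 bases long, are printed as the study's primer list writes them:
uc.115- sense primer: attagttgctgaactcagagaagg
uc.115- antisense primer: tgcttgctaatgctttattgtctc
The normalised log2 signal of uc.115- was 7.62 in whole blood and 12.52 in plasma of HF mice, a 29.7-fold higher level in plasma. In control mice it was 7.86 in whole blood and 6.84 in plasma. Of the 4 blood arrays, HF plasma alone stood high for this transcript. The other ultraconserved LncRNA for which primers were read, uc.184+, was not well above background in either HF blood array, while its levels were 9.57 in control whole blood and 9.32 in control plasma.

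A level here is the log2 of the background-subtracted signal after quantile normalization over the 6 arrays. A probe was detected if its spots were flagged well above background and not flagged as outliers. In HF plasma 29.0% of probes were detected, and in HF whole blood 29.8%. The median spot error given by the scanner software was 11.2% and 11.1% of the signal, which gives a within-array error of about 0.22 on a log2 difference of an mRNA gene. That error covers spot noise on 2 arrays and no variation between mice or between RNA preparations. Negative control spots were well above background at 12.4% of 1200 spots in HF plasma and 0.583% in HF whole blood. None of the 20 negative control probes, which share the 1200 spots, was detected on both arrays. With these probes counted, HF plasma detected 17339 probes, and without them 17337, while HF whole blood detected 17779 either way. The 12.4% bears on every count of probes detected in HF plasma alone.

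HF plasma and HF whole blood differed widely. Among all 11258 probes detected on both arrays, 35.8% were at least 2-fold higher in plasma and 34.2% at least 2-fold lower. Both arrays detected 1092 of the 7536 LncRNA probes, with 498 (45.6%) at least 2-fold higher in plasma and 265 (24.3%) lower. Of the 4093 mRNA probes, 2036 were detected on both, with 777 (38.2%) higher and 600 (29.5%) lower in plasma. The median plasma minus whole blood difference was 0.70 on the log2 scale for LncRNAs and 0.28 for mRNAs, beside 0.11 over all probes. These medians are differences of relative levels, since quantile normalization gives every array the same distribution.

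Detection on a single array added many probes to both sides. Plasma alone detected 822 of 7536 LncRNA probes and whole blood alone 557, when 10.2% and 10.6% of all probes behaved so. The 822 lay near the share of all probes and the 557 below it. The median level of the 822 in HF plasma was 6.63, beside a lowest detected level of 5.37 on that array. For mRNA probes the order was the opposite, with 621 of 4093 detected in plasma alone and 931 in whole blood alone. Both mRNA counts lay above the shares of all probes. The sets differed in detection as such, which bears on these counts. HF plasma detected 64.9% of mRNA, 25.4% of LncRNA and 29.0% of all probes. HF whole blood detected 73.6%, 22.3% and 29.8% in the same order. Where both arrays detected the probe, both sets had more probes higher than lower in plasma. A probe of either set with an outlier flag was left out, which removed 36 LncRNA and 47 mRNA probes.

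**Figure D1:**
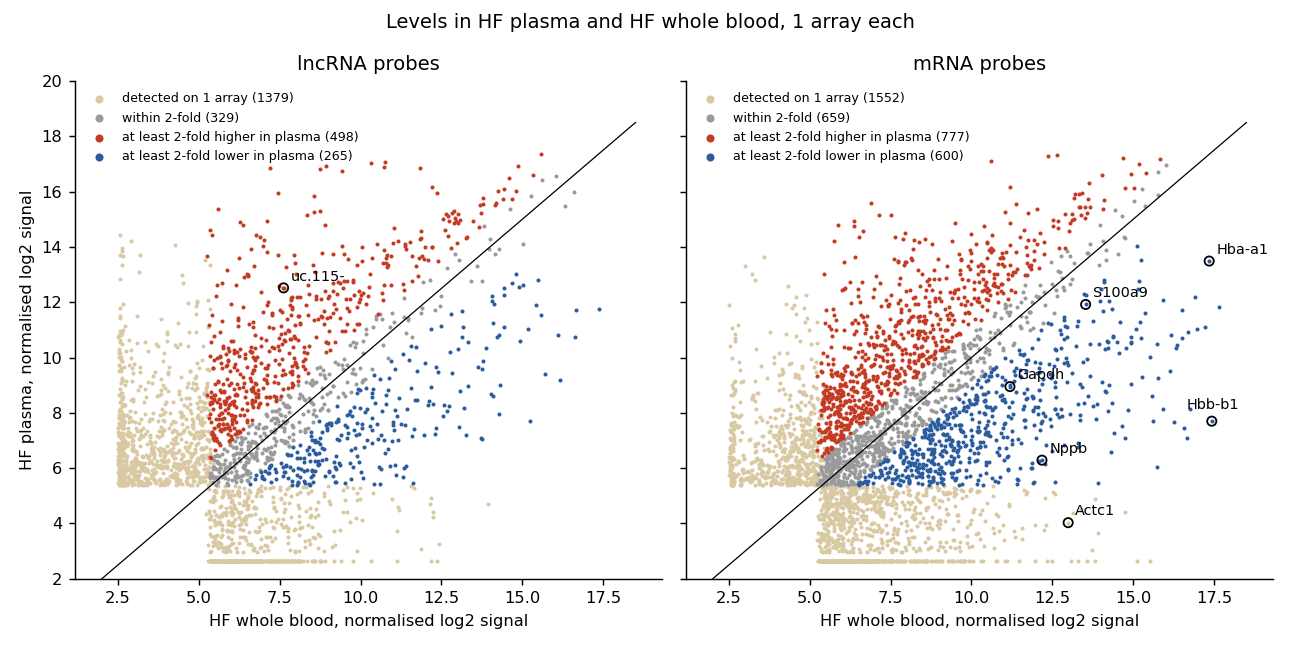
Normalised log2 signal in HF whole blood (x axis) and HF plasma (y axis) for LncRNA probes (left) and mRNA probes (right), 1 point per probe, with the line of equal level. Red points (498 LncRNA, 777 mRNA) were at least 2-fold higher in plasma, blue points (265 and 600) at least 2-fold lower, and circles mark uc.115- and 6 genes.

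In control mice the same comparison gave far fewer differences. Of 14077 probes detected in both control plasma and control whole blood, 2.26% were at least 2-fold higher in plasma and 3.49% lower. Detection in control plasma alone was found for 9.53% of all probes and in control whole blood alone for 1.17%. Over the 873 LncRNA probes detected on all 4 blood arrays, 628 (71.9%) differed at least 2-fold between the HF arrays and 46 (5.27%) between the control arrays. For the 1664 mRNA probes detected on all 4, the shares were 70.4% and 4.81%. The difference between the HF and control contrasts was not tested. Adult globin probes took 2.0% of the signal of control plasma and 2.21% of that of control whole blood, and the part of blood cell RNA in the control plasma array was not tested.

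The levels of the 4 blood arrays can also be set beside each other across probes, which are not independent replicates. Over the 873 LncRNA probes Spearman's rho was 0.96 between control plasma and control whole blood and 0.42 between HF plasma and HF whole blood. HF whole blood stood at 0.69 with control whole blood, and HF plasma at 0.54 with control plasma. The mRNA probes gave 0.96, 0.43, 0.73 and 0.54 in the same order. Control plasma was thus closer to control whole blood than either HF array was to any other blood array.

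The LncRNA classes did not lean equally. Of all LncRNA probes detected on both arrays, 45.6% were higher and 24.3% lower in plasma. Of 124 humanlincRNA probes (named for human long intergenic noncoding RNAs) detected on both arrays, 74 (59.7%) were higher in plasma and 27 (21.8%) lower, with a median difference of 1.94. The mouselincRNA class had 48 of 86 (55.8%) higher and 15 lower, with a median of 1.28. Of 596 MM9LINCRNAEXON probes, which are named for exons of intergenic LncRNAs, 264 (44.3%) were higher and 135 (22.7%) lower, near the shares of all LncRNA probes. LncRNAs named by an EST or cDNA accession were nearly balanced, with 77 of 210 higher and 73 lower and a median of 0.09.

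Ultraconserved transcripts were detected on both arrays for 76 of 962 probes, with 35 (46.1%) higher and 15 (19.7%) lower in plasma. Of all LncRNA probes 45.6% were higher and 24.3% lower, so the higher share of this class lay near that of all. Each region has a probe for each strand. The plus strand gave 14 higher and 8 lower of 34 probes, and the minus strand 21 higher and 7 lower of 42. In 3 regions both strands were detected on both arrays, and in each the strands differed. For uc.293 the plus strand difference was -1.29 and the minus strand difference 4.06, for uc.299 they were 0.96 and -3.03, and for uc.340 they were -0.29 and 2.20.

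The LncRNAs with the widest differences were followed on all 4 blood arrays. MM9LINCRNAEXON10353-, at chr7:112519740-112520990 of mm9, had a level of 5.59 in whole blood and 15.38 in plasma of HF mice, an 885-fold difference with a within-array error of 0.32 on the log2 scale. In control blood its level was 5.76, not well above background, and in control plasma 6.39. MM9LINCRNAEXON11817-, at chr11:96073597-96073934, was likewise higher in plasma, with 7.19 and 16.87 in HF mice, and was 8.13 and 8.25 in control whole blood and plasma. For both transcripts the 3 other blood arrays lay within a narrow low range.

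MM9LINCRNAEXON10819-, at chr3:36341494-36341833, was 7.46 in whole blood and 15.94 in plasma of HF mice. Among humanlincRNAs, humanlincRNA1211+ at chr1:63433035-63443139 was 394-fold higher in plasma (6.27 and 14.90), humanlincRNA2473+ 160-fold and humanlincRNA1006- 105-fold. Among mouselincRNAs, mouselincRNA1592+ at chrX:9324268-9332492 was 226-fold higher (7.11 and 14.93), mouselincRNA0706+ 159-fold and mouselincRNA0570- 96.1-fold. The EST AI561687 went from 5.36 to 14.61 and was not well above background in either control blood array, while BY365123 was 525-fold and CR515255 203-fold higher in HF plasma. The ultraconserved transcripts uc.47-, uc.473+ and uc.113+ were 166-fold, 112-fold and 102-fold higher.

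The LncRNAs lowest in HF plasma relative to HF whole blood were mostly also bright in control blood. MM9LINCRNAEXON10699+ was 16.16 in HF whole blood, 14.77 in control whole blood, 14.82 in control plasma, but 9.20 in HF plasma, a 124-fold lower level in HF plasma than in HF whole blood. The level of mouselincRNA0052- was 15.23 in HF whole blood, 11.33 and 11.86 in control whole blood and plasma, and 7.69 in HF plasma. AV038163 showed 17.38 in whole blood and 11.77 in plasma of HF mice, with 18.55 and 18.01 in the control blood arrays.

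Other LncRNAs with wide differences in that direction were MM9LINCRNAEXON10241+ and MM9LINCRNAEXON10486-, 104-fold and 78.6-fold lower, mouselincRNA1103- and mouselincRNA1400-, with differences of -5.01 and -4.09, and humanlincRNA1921+, 33.0-fold lower. AK217838 and BQ550698 were 78.2-fold and 58.6-fold lower in plasma. The ultraconserved transcripts uc.136+, uc.228+ and uc.355+ were 40.8-fold, 29.0-fold and 18.4-fold lower. The transcripts humanlincRNA0970- and humanlincRNA0933+ were 99.5-fold and 40.7-fold lower, and humanlincRNA0933+ was not well above background in control whole blood (5.39). Each of these LncRNAs has 1 spot per array.

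The LncRNAs higher in HF plasma were also looked up on the other arrays. Of the 498, all of which had to be detected in HF whole blood to be counted, 91.2% were detected in control plasma, 82.9% in control whole blood and 73.1% in HF heart. Among the 329 LncRNAs within 2-fold the share in control plasma was also 91.2%. Of the 822 LncRNAs detected in HF plasma and not in HF whole blood, 304 were detected in control plasma, 166 in control whole blood and 88 in HF heart. The median level of the 498 was 10.45 in HF plasma, beside 8.35 in control plasma, 8.21 in control and 7.18 in HF whole blood. For the 265 LncRNAs that were lower, the median was 7.20 in HF plasma and 9.91 in HF whole blood, with 9.16 in both control blood arrays. The control levels of the 498 and of the 265 lay between the levels of the HF arrays.

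Among mRNAs, the adult globins gave some of the widest differences. The 4 adult globin probes made up 1.58% of the summed signal of the HF whole blood array and 0.0287% of that of HF plasma, beside 2.21% and 2.0% in control whole blood and plasma. Hbb-b1, which encodes adult β-globin, had a level of 17.43 in whole blood and 7.70 in plasma of HF mice, 850-fold lower in plasma with an error of 0.21 on the log2 scale. Its control levels were 17.64 and 17.58 in whole blood and plasma. HF plasma alone stood low for this gene.

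The probe for Hba-a2, an adult α-globin, went from 16.57 to 7.47, while the probe for its near-identical paralog Hba-a1 went from 17.35 to 13.49. The control levels of Hba-a1 were 17.58 in whole blood and 17.53 in plasma. Beta-s, the other adult β-globin, was 16.97 in whole blood and 11.03 in plasma of HF mice. The paralogs share most of their sequence, so the probes cannot be assigned to 1 gene each, and their differences of -9.10 and -3.86 for α-globin did not match. The θ-globin gene Hbq1b was 13.82 in HF whole blood and not well above background in HF plasma, at least 348-fold lower there, and the embryonic Hbb-bh1 was 5.40 and not well above background.

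Genes of red cell maturation followed the globins. Against a background of 37.8% of 1801 mRNA genes higher and 30.8% lower in plasma among those detected on both arrays, 6 of 8 genes for erythroid enzymes and membrane proteins were lower and 1 was higher. A further 12 of the 21 measured were detected in whole blood alone, when 22.5% of all mRNA genes were. Bnip3l, needed for removal of mitochondria from reticulocytes, was 16.27 in whole blood and 7.69 in plasma of HF mice, with 17.35 in both control blood arrays. Bpgm, which makes the haemoglobin ligand 2,3-bisphosphoglycerate, was 13.83 in HF whole blood, and its plasma level was at least 350-fold lower. Fam46c was 69.5-fold lower in plasma, and Pklr, the red cell pyruvate kinase, was 3.93-fold higher.

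**Figure D2:**
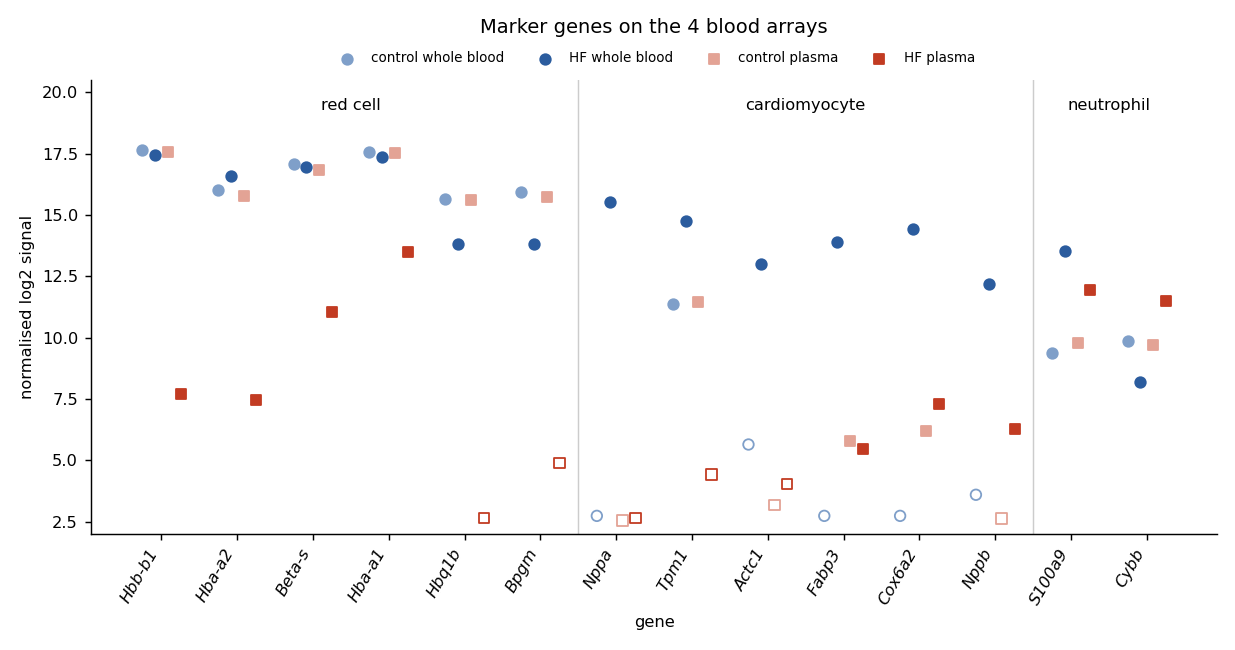
Normalised log2 signal of 14 genes (x axis) on the 4 blood arrays, with circles for whole blood, squares for plasma and open symbols for values not well above background. HF plasma lies below the other 3 arrays for the red cell genes (Hbb-b1 7.70 and 17.43 to 17.64), and HF whole blood lies above the other 3 for the cardiomyocyte genes (Nppa 15.52 and 2.54 to 2.73).

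Transcripts of heart muscle were bright in HF whole blood. All 16 measured sarcomere genes showed a signal in HF whole blood, 5 of them in HF plasma, 5 in control whole blood and 8 in control plasma. Of the 21 other cardiomyocyte genes, 19 were detected in HF whole blood, 9 in HF plasma, 5 in control whole blood and 11 in control plasma. The log2 of their summed level was 16.96 in HF whole blood and 14.82 in plasma of the same mice, while control whole blood stood at 11.73, control plasma at 11.64 and HF heart at 19.18. For the sarcomere genes the sums were 16.17, 14.43, 14.66, 14.62 and 18.04 in the same order. Myh6, the α-myosin heavy chain, was singled out after its values were seen. Its probe was bright in blood, at 14.71 and 14.38 in HF and 14.47 and 14.36 in control whole blood and plasma. On the heart arrays the same probe read lower, at 10.88 in control and 10.68 in HF heart. Whether it measured α-myosin mRNA in blood was not tested. The sarcomere sums include this probe, and its levels lay close to the sums of HF plasma and both control blood arrays. Likewise, the HF plasma sum of the other cardiomyocyte genes, 14.82, lay close to the 14.47 of 1 Hopx probe. That Hopx probe read 9.98 in HF whole blood, 10.62 and 10.59 in control whole blood and plasma, and 7.68 in HF heart. The part of heart tissue or of its RNA in the HF whole blood array was not tested.

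Nppa, which encodes atrial natriuretic peptide, was 15.52 in HF whole blood and not well above background in HF plasma (2.65) or in control whole blood (2.73) and control plasma (2.54). HF plasma was therefore at least 1130-fold lower than HF whole blood, and the level in HF heart was 16.65. Actc1, cardiac α-actin, was 12.99 in HF whole blood and not well above background in HF plasma (4.03), control whole blood (5.64) or control plasma (3.17), at least 197-fold lower in HF plasma. HF whole blood stood alone among the blood arrays for both genes.

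Nppb, which encodes brain natriuretic peptide, a marker of HF, was detected on both HF arrays, at 12.18 in whole blood and 6.29 in plasma, a 59.1-fold lower level in plasma. Its probe was not well above background in control whole blood (3.59) or control plasma (2.63). Fabp3, the heart fatty acid binding protein, was 13.91 and 5.46, a 349-fold difference. Cox6a2, the muscle form of a cytochrome c oxidase subunit, was 14.42 and 7.28. Atp2a2, the calcium pump of the sarcoplasmic reticulum, was 13.92 in HF whole blood by 1 probe, with plasma at least 373-fold lower, and differed by -4.94 by its other probe.

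Among sarcomere genes, Tpm1, a tropomyosin, was 14.74 in HF whole blood, with plasma at least 658-fold lower, although its levels in the control blood arrays were 11.35 and 11.44. Of its 6 other probes, 4 were detected in whole blood alone and 2 in neither array. Ldb3, a Z-disc protein, differed by -1.93 by its brightest probe, and its 2 other probes detected on both arrays gave differences of -1.34 and 1.35. The brightest probe of Tnnt2, cardiac troponin T, differed by 0.88, within 2-fold, while 6 of its 8 other probes were detected in whole blood alone and 2 were lower in plasma, by -1.52 and -1.46. Myom1 and Myom2, which link thick filaments, differed by 0.74 and -0.66.

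Heart genes did not all lean to whole blood. Hopx, a cardiac transcriptional regulator, was 22.6-fold higher in plasma by 1 probe (9.98 and 14.47) and differed by 0.02 by its other probe. Gata4, a cardiac transcription factor, was 9.34 in whole blood and 11.62 in plasma of HF mice, 4.85-fold higher. In all, 2 cardiomyocyte genes were higher and 5 lower among the 8 detected on both arrays, beside 37.8% and 30.8% of all mRNA genes. A further 11 were detected in whole blood alone, when 22.5% of all mRNA genes were.

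Genes for extracellular matrix and fibroblasts were also detected mainly in HF whole blood. Of 21 measured, 10 were detected in whole blood alone, when 22.5% of all mRNA genes were. Of the 7 detected on both, 4 were lower in plasma and none was higher, beside 30.8% and 37.8% of all mRNA genes. Pcolce, which helps to process procollagen, was 11.09 in HF whole blood, and its plasma level was at least 52.5-fold lower, and Col4a2, a basement membrane collagen, at least 23.4-fold lower. Fap, a fibroblast surface protease, was 67.4-fold lower and Dcn, the proteoglycan decorin, 14.9-fold lower. Ogn and Aspn differed by 0.73 and 0.07.

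Of 13 endothelial genes, 6 were detected in whole blood alone, among them Thbd (thrombomodulin, at least 7.24-fold lower in plasma) and Cd34 (at least 6.05-fold lower). Of all mRNA genes, 22.5% were detected in whole blood alone. Sox18, an endothelial transcription factor, was 4.02-fold lower, and Eng, endoglin, differed by -0.98. Gja5, a gap junction protein, was higher, at 5.50 in whole blood and 11.72 in plasma of HF mice. Cd300lg differed by 0.57 by its brightest probe and by 1.65 and 1.94 by 2 others.

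Because blood was drawn from the orbit, genes of the eye and of skeletal muscle were followed as markers of other tissue. Of 13 eye, lens and retina genes, 12 were detected in HF whole blood, 6 in HF plasma, 9 in control whole blood and 10 in control plasma. Their log2 summed level lay between 13.94 (HF whole blood) and 15.25 (HF plasma) on the 4 blood arrays. These sums rested largely on the Crx probe, the brightest member on each blood array. It read 12.86 in HF whole blood, 14.41 in HF plasma and 13.94 in both control blood arrays. Its HF plasma spot carried an outlier flag, and Dct added a level of 13.82 there. Bfsp1 and Bfsp2, which build the filaments of lens fibres, were at least 21.2-fold and 8.10-fold lower in HF plasma than in HF whole blood. The lens genes Crygc and Mip were 2.18-fold and 2.01-fold lower, the pigment cell enzyme Dct was 5.47-fold higher, and the retinal transcription factor Nrl differed by 0.16.

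Of 13 skeletal muscle genes, HF whole blood detected 10 and HF plasma 9. Myl1, a fast myosin light chain, was 8.86-fold lower in plasma, Sgca, a sarcoglycan, 6.73-fold lower and Tpm2, a tropomyosin, 4.90-fold higher. Musk differed by 0.60, and 1 of its 2 other probes was detected in plasma alone and 1 in whole blood alone. Atp2a1, the calcium pump of fast muscle, was at least 1.89-fold lower and Chrna1 at least 1.12-fold lower.

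Neutrophil genes were detected on both HF arrays for most members. Of 22 measured, 19 were so detected, with 3 higher and 7 lower in plasma and a median difference of -0.42, beside the 37.8% higher and 30.8% lower of all mRNA genes. S100a9, a calcium-binding protein abundant in neutrophils, was 13.53 in whole blood and 11.92 in plasma of HF mice, 3.05-fold lower with an error of 0.20. Its control levels were 9.39 and 9.77, so both HF arrays were above both control arrays. The log2 of the summed neutrophil level was 15.46 in HF whole blood, 14.82 in HF plasma, 13.08 in control whole blood and 13.04 in control plasma.

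Ngp, a granule protein, was 10.83 in whole blood and 5.49 in plasma of HF mice, 40.3-fold lower, and Nlrp12 was 24.8-fold lower. Chi3l3, a chitinase-like protein of myeloid cells, was 11.15 in HF whole blood, with plasma at least 55.0-fold lower, and Ncf4, a subunit of the phagocyte oxidase, at least 3.47-fold lower. Cybb, the catalytic subunit of that oxidase, was in contrast 9.75-fold higher in plasma, and Pglyrp1, a peptidoglycan recognition protein, 6.18-fold higher.

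Of 17 monocyte and macrophage genes, 12 were detected on both arrays. Of these 1 was higher and 6 lower in plasma, beside 37.8% and 30.8% of all mRNA genes. Ms4a7 was 12.58 in whole blood and 8.15 in plasma of HF mice, 21.6-fold lower, Mnda differed by -3.17, and C1qc, a chain of complement C1q, was detected in whole blood alone and at least 13.5-fold lower in plasma. Treml4 was 3.23-fold higher by its brightest probe, with differences of 1.68 and 2.56 by 2 others. Ly6c2 differed by 0.36, and the scavenger receptor Msr1 was detected in plasma alone, at least 18.0-fold higher.

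By their brightest probes, T and NK cell genes were more often higher than lower in plasma. Among 20 measured, both HF arrays detected 8, with 5 higher and 2 lower in plasma, beside 37.8% and 30.8% of all mRNA genes. Plasma alone detected 5 and whole blood alone 3, beside 14.4% and 22.5% of all mRNA genes. In HF plasma Cd8a, Klra8 and Lax1 lay at 5.84, 5.99 and 6.04, near the lowest detected level of 5.37. Prkcq and Cd28 lay at 6.57 and 7.82. Of the 5 higher genes, Cd247 differed by 1.12 by its brightest probe and by -1.61 by another. Foxp3 differed by 2.49 and 0.38 by its probes, and Ccr9 by 2.40 and 1.21. Klrb1a, an NK cell receptor, was 6.36 in whole blood and 10.84 in plasma of HF mice, 22.2-fold higher, and Satb1, a chromatin organiser of T cells, 8.73-fold higher. Cd28, a costimulatory receptor, was at least 6.16-fold higher. Cd6, a T cell surface receptor, was 8.39-fold lower, Klra2 4.73-fold lower and Ccr7, a homing receptor, at least 3.01-fold lower.

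Of 13 B cell genes, 3 were higher and 1 lower among the 8 detected on both arrays. Cd37, a tetraspanin, was 4.97-fold and Blnk, a signalling adaptor, 3.67-fold higher in plasma, and Cd74, the invariant chain of MHC class II, was detected in plasma alone, at least 8.06-fold higher. Pou2f2, a B cell transcription factor, was 12.2-fold lower by 1 probe and differed by -1.40 by the other. Fam129c was at least 2.40-fold lower and H2-Ob differed by -0.01. The share of these genes higher in plasma, 3 of 8, was close to the 37.8% of all mRNA genes.

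Platelet genes were mixed. Of 12 measured, 5 were detected on both arrays, with 3 higher and 1 lower in plasma, beside 37.8% and 30.8% of all mRNA genes. Plasma alone detected 1 and whole blood alone 2, beside 14.4% and 22.5% of all mRNA genes. The remaining 4 were detected on neither HF array, while both control blood arrays detected all 12. Gp5, a glycoprotein of the platelet von Willebrand factor receptor, was 11.49 in whole blood and 6.01 in plasma of HF mice, with 12.70 and 13.22 in control whole blood and plasma. Gp1bb of the same receptor differed by -0.88, Tmem40 and Pear1 were 7.58-fold and 5.19-fold higher, Gnaz was at least 3.77-fold higher and Alox12, platelet lipoxygenase, at least 3.14-fold lower.

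Among genes for the machinery that every cell uses, those of oxidative phosphorylation were mostly lower in plasma. Of 23 genes for oxidative phosphorylation, 18 were detected on both arrays, 17 of them were lower in plasma and 1 was higher. Of all mRNA genes detected on both, 30.8% were lower and 37.8% higher. Another 5 genes of the list were detected in whole blood alone, near the 22.5% of all mRNA genes. The median difference of the list was -3.96, beside 0.22 over all mRNA genes and 0.11 for this list between the control arrays. Cox7a2, a cytochrome c oxidase subunit, was 11.94 in whole blood and 5.51 in plasma of HF mice. Ndufb6, a complex I subunit, was at least 41.5-fold lower, and Cox8b, the muscle form of a cytochrome c oxidase subunit, at least 330-fold lower. Atp5g1, a subunit of the ATP synthase ring, was the exception, 15.3-fold higher in plasma.

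Of 25 cytosolic ribosomal protein genes, 16 were detected on both arrays, with 11 lower and 4 higher by their brightest probes. A further 6 were detected in whole blood alone. Of all mRNA genes, 30.8% were lower and 37.8% higher among those detected on both, and 22.5% were detected in whole blood alone. The median difference of the ribosomal genes was -3.16 in HF mice and 0.16 in control mice. Rpl38 was 54.8-fold lower by 1 probe and differed by 1.36 by its other probe, so its direction depended on the probe. Rpl22 was at least 6.82-fold and Rpl37a at least 4.02-fold lower. Rps2 was 18.0-fold and Rpl17 8.79-fold higher. Ribosomal protein genes have many processed pseudogenes, which such probes may not separate from the parent gene.

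Of 23 proteasome and ubiquitin genes, 9 of the 11 detected on both were lower in plasma and none was higher, with a median of -2.19. Of all mRNA genes detected on both, 30.8% were lower and 37.8% higher. Psmd4, a ubiquitin receptor of the proteasome, was 30.2-fold lower and Vcp, an ATPase that extracts ubiquitinated proteins, 20.8-fold lower. Ube2j2 and Psme2 differed by 0.95 and 0.15. Ube2e3, a ubiquitin-conjugating enzyme, was detected in whole blood alone, at least 55.8-fold lower in plasma, while Uba3, of the NEDD8-activating enzyme, was detected in plasma alone, at least 28.3-fold higher.

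Translation factors showed no common direction, with 3 higher and 2 lower of 7, beside 37.8% and 30.8% of all mRNA genes. Tpt1, translationally controlled tumour protein, was 17.22 in whole blood and 11.11 in plasma of HF mice, with 17.24 and 17.26 in the control blood arrays. Eif4g1 was 3.16-fold lower, Eif2b3 and Eif2a were 7.65-fold and 4.61-fold higher, Pabpc1, the poly(A)-binding protein, was at least 69.1-fold lower and Eif2b4 at least 53.1-fold higher. The levels of Eif2b4 were 6.78 and 7.04 in control whole blood and plasma.

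Of 9 glycolysis genes, 2 were higher and 3 lower among the 7 detected on both, beside 37.8% and 30.8% of all mRNA genes. Ldhb, a lactate dehydrogenase subunit, was 10.5-fold and Pgk1, phosphoglycerate kinase, 6.31-fold lower, Aldoa, aldolase, 6.39-fold higher, Tpi1 at least 3.62-fold higher and Pfkl at least 1.13-fold lower. Gapdh, the gene often used to scale such data, had a level of 11.19 in whole blood and 8.95 in plasma of HF mice by its single-spot probe, 4.73-fold lower, and 8.86 and 8.55 in control whole blood and plasma.

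Of 26 genes for MHC class I and the interferon response, 18 were detected on both arrays, with 4 higher, 6 lower and 8 within 2-fold. Of all mRNA genes detected on both, 37.8% were higher and 30.8% lower, so the lower share of this list lay near that of all genes. B2m, the light chain of MHC class I, was 37.9-fold lower (14.25 and 9.01), H2-K1 7.35-fold lower and H2-D1 at least 4.35-fold lower, although these class I heavy chains are closely related in sequence. Tapbp, which loads peptides on class I, was 7.10-fold higher and differed by 1.95 by its other probe, and Ifit3 was at least 1.91-fold lower.

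Of 12 genes for proteins common on extracellular vesicles, 6 were detected on both arrays, with 3 lower and 1 higher, and 5 in whole blood alone. Of all mRNA genes, 30.8% were lower and 37.8% higher among those detected on both, and 22.5% were detected in whole blood alone. Cd9, a tetraspanin, was 11.92 in whole blood and 5.45 in plasma of HF mice, and Lamp2, a lysosome membrane protein, was 11.3-fold lower. Anxa7, an annexin, was 55.0-fold higher and its other probe was detected in plasma alone. Pdcd6ip, which sorts cargo into vesicles, differed by 0.13 and by -0.67 by its other probe. Sdcbp and Anxa2 were at least 3.38-fold and 3.26-fold lower.

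Immediate early and stress genes gave some of the widest gaps in both directions. Junb, an AP-1 transcription factor, was 12.38 in whole blood and 17.30 in plasma of HF mice, with 10.93 and 11.26 in control whole blood and plasma. Its relative Jund was 15.51 and 10.03, 44.6-fold lower in plasma, with 16.07 and 16.21 in control blood. The 2 genes of 1 family thus lay on opposite sides, and HF plasma stood apart from the other blood arrays for both. Hspa5, a chaperone of the endoplasmic reticulum, was 13.01 in HF plasma and not well above background in HF whole blood (3.21), at least 225-fold higher. Gadd45a, induced by DNA damage, was 13.28 in HF whole blood, with plasma at least 240-fold lower. Hspa1b, a heat shock protein, was 40.1-fold lower and Nr4a1 3.64-fold higher. Of the 11 genes detected on both, 7 were lower, beside 30.8% of all mRNA genes.

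Some groups of genes not known for blood cells had more members higher than lower in plasma. Of 29 hepatocyte genes, 11 of the 17 detected on both arrays were higher and 3 lower, with a median of 2.59. Of all mRNA genes detected on both, 37.8% were higher and 30.8% lower. Apoc1, an apolipoprotein, was 6.05 in whole blood and 12.47 in plasma of HF mice by its brightest probe and differed by 1.35 by its other probe. Serpina11 was 15.1-fold higher, F7 and F10, coagulation factors, were 8.77-fold and 3.12-fold lower, and Serpina3n and Rbp4, the retinol carrier, were at least 11.8-fold and 7.82-fold lower. The level of Serpina11 was 9.97 in HF whole blood, 13.89 in HF plasma, and 7.66 and 7.96 in control whole blood and plasma.

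Of 18 keratin and epidermis genes, 9 of the 10 detected on both were higher in plasma and 1 lower, with a median of 2.81. Of all mRNA genes detected on both, 37.8% were higher and 30.8% lower. Detection in plasma alone was found for 3 of the 18, a share near the 14.4% of all mRNA genes. Krt4, a keratin of stratified epithelium, was 8.20 in whole blood and 12.17 in plasma of HF mice, 15.7-fold higher, and Cdsn, corneodesmosin, 14.9-fold higher. Lor, loricrin, was at least 5.48-fold and Krt15 at least 2.56-fold higher. Krtdap was the single member lower in plasma, with a difference of -4.64. The levels of Krt4 in control whole blood and plasma were 8.71 and 9.32, and those of Cdsn 10.67 and 10.76.

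Of 78 chemosensory receptor genes, which belong to large families expressed in sensory neurons, 52 were detected on both HF arrays. Of these, 34 were higher in plasma and 8 lower, with a median of 1.83, beside 37.8% higher and 30.8% lower of all mRNA genes. Olfr1465, an odorant receptor, was 12.65 in whole blood and 17.32 in plasma of HF mice, 25.5-fold higher, and Olfr1148 30.7-fold higher. The vomeronasal receptors Vmn2r90 and Vmn2r120 were 20.6-fold and 18.5-fold lower, and Olfr538 and Vmn1r118 at least 13.6-fold and 12.4-fold lower. Members of these families are similar in sequence, so the probes may not separate them. On the control arrays 45 were detected on both, 1 was higher in plasma and none was lower.

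Other mRNAs far lower in HF plasma were bright on the other blood arrays too. Eya4, a transcriptional coactivator, was 15.73 in whole blood and 6.04 in plasma of HF mice, and Ipp, a kelch-like protein, 16.65 and 7.10. Dusp8, a phosphatase of MAP kinases, was 397-fold lower, Arf5, a GTPase of membrane traffic, 243-fold, Zdhhc22 220-fold and the selenoprotein Sepw1 209-fold lower, and the control spots of Ipp, Zdhhc22, Dusp8 and Arf5 carried outlier flags on at least 1 array. The levels of Eya4 were 12.27 in control whole blood and 12.27 in control plasma, lower than in HF whole blood by more than 2-fold.

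The mRNAs with the widest differences toward plasma were dim on the other blood arrays. Neurl1b, a ubiquitin ligase, was 5.88 in HF whole blood, 14.79 in HF plasma, and 6.44 and 6.81 in control whole blood and plasma. Acvr1c, a receptor of the TGF-β family, was 6.89 and 15.57, a 410-fold difference, and Ptprn, a protein of secretory granules, 6.36 and 14.94. Dnajc25 was 356-fold higher, Ring1, a Polycomb protein, 331-fold, Prdm11 264-fold, Gm364 244-fold, Siah1b, a ubiquitin ligase, 230-fold, Zfp68 200-fold and AK010878 189-fold higher. Each of these levels was read from 1 spot. AK010878 has another probe detected on both HF arrays, which differed by 0.90.

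The best measured probes of the array are 15 housekeeping probes printed on 20 spots each. Of these, 9 were detected on both HF arrays, with 6 lower, 1 higher and 2 within 2-fold. B2m was 15.38 in whole blood and 11.15 in plasma of HF mice by this probe, 18.8-fold lower, with an SD between spots of 0.07 and 0.19. Gapdh was 15.05 and 13.41, 3.13-fold lower, Actb 4.84-fold lower, Ppia 4.51-fold, Hprt 6.01-fold and Hsp90ab1 28.7-fold lower. The SD of Hsp90ab1 between its spots in HF plasma was 1.75, the widest of the 9.

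Nono, an RNA-binding protein of paraspeckles, was 11.57 in whole blood and 14.42 in plasma of HF mice, 7.21-fold higher, with 15.15 and 15.13 in control whole blood and plasma. For Nono it was HF whole blood that stood apart among the 4 blood arrays. Tuba1b and G6pd2 differed by -0.47 and 0.76. Tfrc, the transferrin receptor, was detected in whole blood alone, at least 27.2-fold lower in plasma, and Rpl13a and Gusb at least 3.25-fold and 2.33-fold lower, while Gk was at least 2.10-fold higher in plasma. The control arrays detected 11 of the 15 on both, and 0 of these differed by 2-fold, with no test made. Differences between genes used for scaling therefore ran from -4.84 to 2.85 in HF mice.

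**Figure D3:**
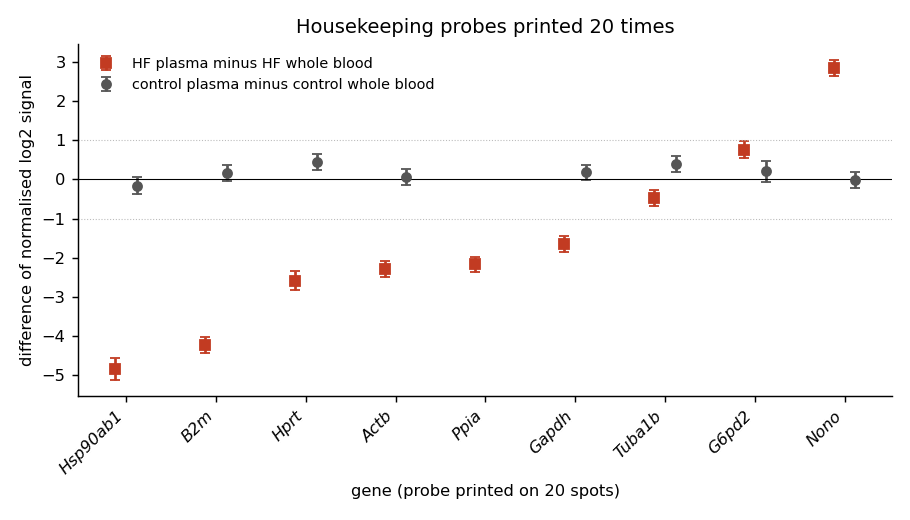
Plasma minus whole blood difference of normalised log2 signal (y axis) for the 9 housekeeping probes printed on 20 spots and detected on both HF arrays (x axis), with squares for HF mice, circles for control mice and bars for the within-array error of the pair. HF differences ran from -4.84 (Hsp90ab1) to 2.85 (Nono), and control differences lay within 2-fold. Ppia has no control point because a control spot was flagged.

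Probes of 1 gene did not always move together. Of 178 genes with 2 or more mRNA probes detected on both HF arrays, all probes were at least 2-fold higher in plasma for 39 and at least 2-fold lower for 11, and for 31 genes 1 probe was at least 2-fold higher and another at least 2-fold lower. The median range between the probes of a gene was 2.04 on the log2 scale. For the 134 of these genes also detected in both control blood arrays, the median range was 2.05 in HF mice and 0.42 in control mice. In HF mice the spread within a gene was thus many times the within-array error of 0.22.

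Longer transcripts leaned to plasma. Among the shortest 408 mRNA probes, of 5 groups of equal size, up to 1161 nt, 33.8% were higher in plasma and 40.9% lower, and in the longest group, from 4087 nt, 44.7% of 407 were higher and 23.1% lower. The median difference went from -0.27 to 0.71. Across 2036 mRNA probes Spearman's rho between length and difference was 0.14, as a description across probes that share 2 arrays. Over the 1664 probes detected on all 4 blood arrays it was 0.12 in HF mice and -0.01 in control mice.

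For LncRNAs a length was at hand for 4326 probes of the study's LncRNA profile, a set that differs from the named classes above. Of 2322 detected on both HF arrays, rho was 0.13. The group from 343 to 678 nt stood apart, with 29.2% higher and 47.3% lower of 459, while the shortest group had 40.6% higher and 31.8% lower. The longest group, from 2675 nt, had 48.0% higher and 24.1% lower. The order of the LncRNA groups was not steady, and the relation was weak in both sets.

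**Figure D4:**
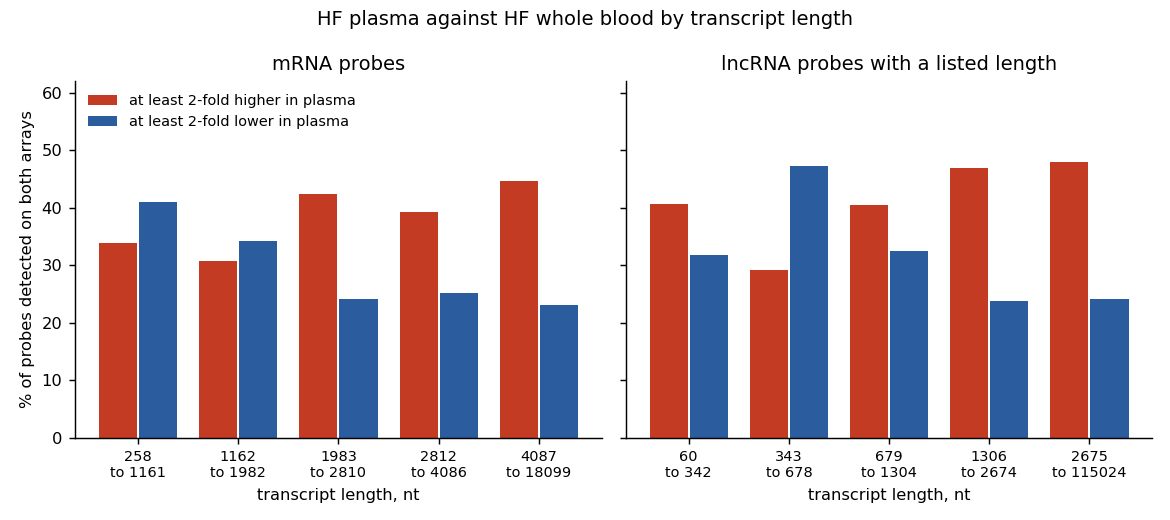
Share of probes detected on both HF arrays that were at least 2-fold higher (red) or lower (blue) in plasma (y axis, %), in 5 groups by transcript length in nt (x axis), for mRNAs (left) and LncRNAs (right). For mRNAs the lower share was 40.9% in the shortest and 23.1% in the longest group, and for LncRNAs it was highest, 47.3%, in the group from 343 to 678 nt.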

How the data were processed

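Scanner files of the 6 arrays (Arraystar Mouse LncRNA Microarray v2.0) were deposited with, per spot, a background-subtracted intensity in a single colour made by the authors with Agilent Feature Extraction 11.0.1.1. The deposited series table holds the same intensity, with 0 spots that differ by more than 0.001 of the value. RNA was amplified with random primers after removal of rRNA. Control spots were left out, log2 intensities averaged per probe, and 59729 probes quantile normalized over the 6 arrays together. The study's methods name quantile normalization, without saying over which arrays.

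LncRNA probes were taken by name and mRNA probes from the 4093 of the study's mRNA profile held here, a part of a longer table, of which 3977 accessions were found in RefSeq. A gene was represented by its brightest probe over both arrays. Differences of at least 2-fold between probes detected on both arrays were counted, without a test. For a probe detected on 1 array, the bound took the higher of the dim level and the lowest detected level there.

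The rule for names took the 3 widest LncRNAs per class and direction, the 10 widest mRNAs, and in each of 24 lists the 2 widest per direction and the 2 brightest detected on 1 array, with a few fixed markers. A few genes that the rule names are not reported here. Members and lists were chosen with earlier results of these data known. Coordinates are those of the study's tables. The counting was checked on simulated data. Software was R 4.3.3 with limma 3.58.1, and Python 3.11.15 with pandas 2.3.3, matplotlib 3.10.9, numpy 2.4.6 and scipy 1.17.1. Alternatives were the scaling, background, detection flag, fold and probe set.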

Additional observations from a re-analysis of the deposited data

Results flagged for a closer look

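A few named transcripts lay at least 2-fold apart in opposite directions in HF and control mice, and these differences between the mice were not tested. Plasma minus whole blood was 6.72 in HF mice and -1.03 in control mice for humanlincRNA1006-, and 4.89 and -1.01 for uc.115-. For Cd6, a T cell receptor, it was -3.07 and 1.53, and for Egr1, an immediate early transcription factor, -1.27 and 1.41. Over all probes detected on the 4 blood arrays, opposite calls were made for 12 LncRNAs higher and 7 lower in HF plasma of 873, and for 11 and 16 of 1664 mRNAs.

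The negative control spots, which the comparisons do not use, were well above background at 12.4% in HF plasma and 4.33% in control plasma.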

How the results depend on the processing

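No paired analysis was possible because each condition has 1 array. The 498 LncRNA probes higher and 265 lower in HF plasma stayed within 1.5 times under the 75th percentile, both narrower quantile normalizations, normexp with an offset of 50, a fold of 1.5 and, added after the data were seen, with outlier spots kept. Those main counts were of 1092 probes, and other settings also changed the number of probes counted. The counts moved to 1067 and 652 of 2546 with the weaker detection flag and 2005 and 1253 of 7536 with no detection filter. At 4-fold they were 330 and 172 of 1092. With the LncRNA profile as probe set they were 952 and 739 of 2322, a smaller lean to plasma than in the main set. With detection on all 6 arrays they were 330 and 177 of 690. The 777 higher and 600 lower mRNA probes of 2036 moved to 1220 and 1186 of 3358 with the weaker flag and 477 and 396 of 2036 at 4-fold. With no filter they were 1451 and 1598 of 4093, so that more mRNAs were lower than higher. Of 249 named probes with a 2-fold difference, none changed sign under the 4 scalings, and between 230 and 247 kept a 2-fold difference. The scalings moved the differences of the named probes by a median of 0.06 to 0.38 on the log2 scale. Because the naming rule picked wide differences, kept signs were likely beforehand and lend these differences no support. Signal over background limits the dim probes: 25588 spots in HF plasma and 30411 in control whole blood share the lowest value of their array and have no order, which bears on detection in control mice too. The spread between mice or preparations cannot be known from 1 array per condition.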
